A study of Mus musculus with 8 samples.

Results

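The genes described here encode the proteins of the cytosolic ribosome. They were taken by symbol from the protein-coding genes of the mouse build mm10: Rpl for the large subunit and Rps for the small subunit, followed by a number with an optional a, l1 or x form, together with Rplp0, Rplp1, Rplp2 and Rpsa. This gave 79 of 21887 protein-coding genes, 48 for the large and 31 for the small subunit. Kinases named Rps6k, retrogenes with an l ending and pseudogenes were left out, and Rps3a1 was read as an a form. The members lay on 19 chromosomes, 4 of them on the X. Their median length was 3175 bp (982 to 11774 bp), against 17169 bp for all protein-coding genes.

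The cells were wild-type iMOPs, an immortalized line of mouse multipotent otic progenitors, in either of 2 states. Proliferating iMOPs were kept in DMEM/F12 with B27, carbenicillin and 20 ng/ml bFGF. The neurons derived from them were kept in Neurobasal medium with N21, L-glutamine and 1 µM K03861, an inhibitor of the cyclin-dependent kinase CDK2. In CUT&Tag an antibody brings a transposase to its target, and the cut DNA is sequenced. CHD4, H3K4me3 and p300 were each profiled in 1 library of 500000 cells per state, so differences between the states could be neither checked in replicates nor tested. All cells come from a single line. The labels leave unsaid if a deposited list joins repeat libraries, and each list was counted as 1. The IgG libraries were not analysed here, and the values stand without a control level. The 6 peak lists held 7472 H3K4me3, 4919 CHD4 and 3144 p300 peaks in proliferating cells, and 5625, 4599 and 965 in neurons. The lists carry no read depth, so depth, calling threshold and number of sites cannot be told apart as reasons for a shorter one. Of the markers checked, H3K4me3 lay at an end of 7 of 8 progenitor genes in proliferating cells, with Mcm2 unmarked, and at 5 in neurons. It lay at 3 of 10 neuronal genes in neurons, of which Tubb3 and Map2 were also marked in proliferating cells and Elavl3 was not. The other 7, among them Dcx, Stmn2 and Nefl, had no H3K4me3 peak in either state, and neither did any of the 4 hair cell or 4 glial markers. Of 3 blood markers, Cd68 was marked in proliferating cells only, and Ptprc and Hba-a1 in neither state.

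Each ribosome needs one copy of nearly every ribosomal protein, and the genes for them, spread over the genome, are transcribed together at high levels. Their short promoters usually lack a TATA box, sit in CpG-rich DNA and start transcription at a C within a run of pyrimidines, the TOP motif, through which mTOR signalling controls translation of the mRNA. CHD4 is the ATPase of the NuRD remodelling and deacetylase complex, p300 is a histone acetyltransferase of enhancers and promoters, and H3K4me3 marks active promoters. Many ribosomal protein genes carry small nucleolar RNAs (snoRNAs) in their introns, which guide the modification of ribosomal RNA. Here 30 members held 59 snoRNA genes.

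RefSeq promoter sequences (build GRCm38.p6, which has the mm10 coordinates) were found for 59 of the 79 members. Stretches from 180 bases before to 20 bases from the start are shown for 6 of them, so that promoters of each CHD4 class described below can be read side by side. A class refers to a peak at either end of the gene, which need not lie over the printed promoter. Capitals mark matches on either strand to the motifs searched, which are spelled out further on.
Rpl13a, chr7:45128726-45128925, minus strand, CHD4 in both states: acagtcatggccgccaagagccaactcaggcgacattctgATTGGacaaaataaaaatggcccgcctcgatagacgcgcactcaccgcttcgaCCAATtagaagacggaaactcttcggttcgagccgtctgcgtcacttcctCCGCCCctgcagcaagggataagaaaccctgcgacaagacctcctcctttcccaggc
Rps15, chr10:80292251-80292450, plus strand, CHD4 in both states, with no match: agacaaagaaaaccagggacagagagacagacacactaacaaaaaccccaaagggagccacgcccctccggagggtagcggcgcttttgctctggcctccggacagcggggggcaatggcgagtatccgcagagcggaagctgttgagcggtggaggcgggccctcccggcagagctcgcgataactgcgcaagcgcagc
Rpl12, chr2:32961532-32961731, plus strand, CHD4 in proliferating cells only: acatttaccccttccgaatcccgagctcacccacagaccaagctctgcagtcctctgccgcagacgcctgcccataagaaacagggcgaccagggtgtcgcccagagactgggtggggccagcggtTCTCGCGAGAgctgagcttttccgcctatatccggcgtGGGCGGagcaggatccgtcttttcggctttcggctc
Rpl18, chr7:45717891-45718090, plus strand, CHD4 in neurons only: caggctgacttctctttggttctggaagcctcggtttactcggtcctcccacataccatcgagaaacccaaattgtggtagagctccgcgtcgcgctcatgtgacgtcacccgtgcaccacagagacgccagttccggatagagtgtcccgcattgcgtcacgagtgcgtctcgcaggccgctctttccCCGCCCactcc
Rpl34, chr3:130730379-130730578, minus strand, H3K4me3 in both states without CHD4 or p300: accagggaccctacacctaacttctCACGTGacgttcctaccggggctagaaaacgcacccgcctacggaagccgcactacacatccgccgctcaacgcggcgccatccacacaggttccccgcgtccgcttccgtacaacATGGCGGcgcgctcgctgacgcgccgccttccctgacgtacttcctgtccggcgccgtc
Rps25, chr9:44407534-44407733, plus strand, H3K4me3 in both states without CHD4 or p300: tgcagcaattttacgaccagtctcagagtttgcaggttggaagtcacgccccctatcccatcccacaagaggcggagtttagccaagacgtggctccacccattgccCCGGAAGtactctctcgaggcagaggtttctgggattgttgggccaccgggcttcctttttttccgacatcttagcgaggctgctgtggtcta

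The stretches around the start are shown for the 4 members with CHD4 in both states whose listed start base is a C followed by at least 4 pyrimidines, chosen after their values were seen. Each runs from 30 bases before to 20 bases from the start, and capitals mark the pyrimidine run from the start base.
Rpl35, chr2:39005112-39005161, minus strand: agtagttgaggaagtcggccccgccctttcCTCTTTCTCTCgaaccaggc
Rpl38, chr11:114668550-114668599, plus strand: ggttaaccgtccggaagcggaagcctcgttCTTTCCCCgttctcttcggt
Rps18, chr17:33955646-33955695, minus strand: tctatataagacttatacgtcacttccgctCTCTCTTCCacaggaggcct
Rps21, chr2:180257349-180257398, plus strand: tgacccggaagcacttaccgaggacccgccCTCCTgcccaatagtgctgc

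Such a TOP-like start was read at 12 of the 59 promoters (20.3%), against 2.17% of the 17492 protein-coding promoters in the table and 0 of 69 mitochondrial ribosomal protein promoters. Within 10 bases of the listed start, a C and 4 pyrimidines occurred in 55.9% of members, 31.1% of all promoters, 32.0% of those of genes with H3K4me3 in both states and 43.5% of the mitochondrial ones. The member promoters held a median of 21 CpG dinucleotides in 300 bases, against 13 for all promoters and 24 for those of genes with H3K4me3 in both states. Over those 300 bases and on both strands, CCGGAAG, a form of the ETS site, was found in 39.0% of members, 11.9% of all promoters and 21.6% of promoters with H3K4me3 in both states. TCTCGCG was found in 22.0%, 3.65% and 7.37%, in the same order. The word ATGGCGG, which overlaps the YY1 site, was found in 16.9%, 5.44% and 10.1%, and GGGCGG, the core of the Sp1 site, in 61.0%, 46.3% and 70.0%. The E-box CACGTG, which Myc and its partners bind, was found in 8.47%, 7.91% and 10.7%, CCAAT in 30.5%, 39.2% and 40.9%, and TATAAA in 11.9%, 13.3% and 5.36%, in that order. Of the 69 mitochondrial ribosomal protein promoters, 34.8% held CCGGAAG, 18.8% ATGGCGG and 5.80% TCTCGCG, so that CCGGAAG and ATGGCGG stood near the members' shares there. By CHD4 class the numbers are small: the TOP-like start was read at 4 of 8 members with CHD4 at either gene end in both states, 1 of 11 with it in proliferating cells only, 0 of 2 with it in neurons only and 7 of 38 without CHD4. A match is a run of letters in this window and was not tied to a bound factor.

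H3K4me3 lay at nearly all ribosomal protein genes in both states. A gene was counted where a peak came within 1 kb of either annotated gene end, since the gene table gives no strand. This held for 74 of 79 members in proliferating cells (93.7%, exact 95% interval 85.8 to 97.9), against 37.6% of all protein-coding genes. In neurons it held for 72 members (91.1%, 82.6 to 96.4), against 30.0% of all genes. The intervals cover counting error only, since genes are not replicates. Mitochondrial ribosomal proteins, which make up the separate ribosome of that organelle, had H3K4me3 at 60 and 52 of 78 genes. Of translation initiation and elongation factors, 44 and 39 of 57 were marked, and of 41 ribosome biogenesis genes, 35 and 30. The large subunit had 45 and 44 of 48 members marked and the small subunit 29 and 28 of 31.

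**Figure D1:**
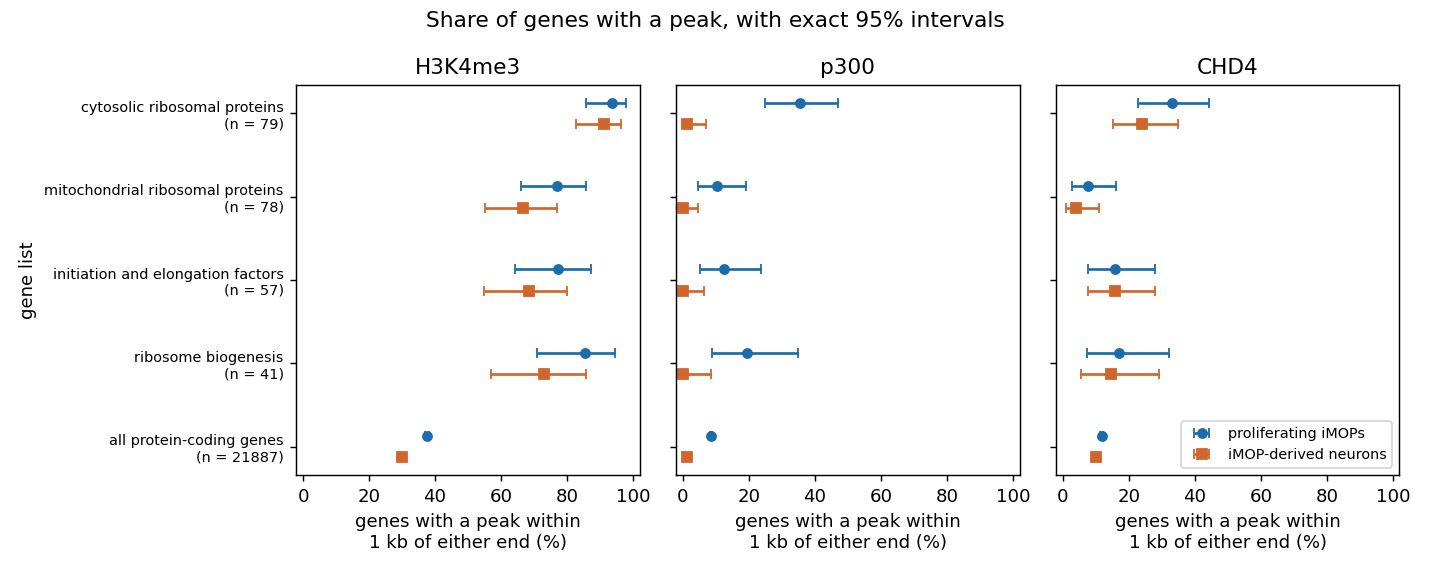
Share of genes with a peak within 1 kb of either end (x axis, percent) for each gene list (y axis), by antibody (panels) and state (blue circles, proliferating; orange squares, neurons), with exact 95% intervals that cover counting error only. The 79 ribosomal protein genes sit at 93.7% and 91.1% for H3K4me3, at 32.9% and 24.1% for CHD4, and at 35.4% and 1.27% for p300.

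H3K4me3 was listed in both states at 70 members (88.6%, against 29.4% of all genes). It was listed in proliferating cells only at 4 (5.06%, against 8.21%): Rps26 and Rps23, of the small subunit, and Rpl26 and Rpl10, of the large. In neurons only it was listed at 2 (2.53%, against 0.612%), Rpl37a and Rps4x. No H3K4me3 peak was listed in either state at Rpl22l1, the paralog of Rpl22, at Rps20 or at Rpl36a. Rpl22 itself was marked in both states, and so were Rpl7 and its paralog Rpl7l1. The peaks listed in 1 state only were mostly weak ones. By percentile of total signal within its own list, Rps26 stood at 0.040, Rpl10 at 0.803, Rpl26 at 10.8 and Rps23 at 30.7 in proliferating cells, and Rps4x at 12.1 and Rpl37a at 15.5 in neurons. For the members without a peak, the nearest H3K4me3 peak outside the window was far off. In neurons it lay 7566 bp from Rpl10, 46916 bp from Rpl26, 57029 bp from Rps26 and 831672 bp from Rps23, and in proliferating cells 60310 bp from Rps4x and 109288 bp from Rpl37a.

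Members on the X made up 3 of these 9 genes. Of the 4 in all, Rpl39 had H3K4me3 in both states, at percentiles 24.6 and 16.7. Rpl10 had it in proliferating cells only, Rps4x in neurons only and Rpl36a in neither, so 2 of 4 were marked in each state. On the numbered chromosomes 72 and 70 of 75 members were marked. Genes on the X as a whole also had fewer listed peaks: H3K4me3 lay at 12.1% of 966 X-linked genes in proliferating cells and 7.66% in neurons, against 39.2% and 31.4% on the numbered chromosomes. No X-linked member had CHD4 or p300, which were listed at 1.04% and 0.518% of X-linked genes in proliferating cells. With 4 members the exact interval for a share of 0 reaches 60.2%.

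H3K4me3 peaks at ribosomal protein genes were wide. Their median width was 5400 bp in proliferating cells (2350 to 21400) and 6175 bp in neurons (3150 to 21050), against 3800 and 4400 bp over all genes with a peak. The widest in proliferating cells were at Rpl7a (21400 bp, percentile 99.8), Rps10 (17600 bp, 94.9) and Rpl35 (13500 bp, 99.2). In neurons they were at Rpl18 (21050 bp, 99.4), Rpl7a (14000 bp, 99.5) and Rpl35 (13350 bp, 99.0). These wide peaks took in neighbouring genes: that at Rpl7a also reached Surf1, Surf2, Surf4, Surf6 and Med22 in proliferating cells, and that at Rpl18 reached Car11, Dbp, Sphk2 and Fam83e in neurons. The narrowest were at Rpl5 (2350 bp), Rps23 and Rps29 (3050 bp each) in proliferating cells, and at Rpl10a and Rpl24 (3150 bp each) and Rps29 (3400 bp) in neurons. Rpl5 belongs with the 5S RNA to the particle that binds Mdm2 when ribosome assembly fails, and its peak in neurons measured 5450 bp. By signal, Rpl23a stood at percentile 99.3 and Rps7 at 8.46 in proliferating cells, and in neurons Rpl24 was lowest at 11.5.

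Between the states, the H3K4me3 peaks of 69 of the 70 shared members overlapped, and at 34 the position of highest signal, given in steps of 50 bp, was the same. In neurons 42 peaks were wider, 27 narrower and 1 equal. Over all genes with a peak the median width was also larger in neurons, 4400 against 3800 bp. When the lists were made equally long, more members ranked higher in neurons than lower. With the 5625 strongest peaks of each state, H3K4me3 lay at 64 members in proliferating cells and 72 in neurons, while the share of all genes was 29.7% and 30.0%. Of the 63 members present in both trimmed lists, 43 stood at a higher percentile in neurons and 20 at a lower one. Counts of overlapping, same-position, wider, higher-ranked or single-state peaks are not given for all genes. Neither the shared positions nor these shifts can thus be called particular to the members. A peak was present in neurons only at 9 (Rpl28, Rpl37a, Rpl39, Rpl6, Rpl7l1, Rps24, Rps4x, Rps7 and Rpsa) and in proliferating cells only at Rps23. Of these, Rpl6 was at percentile 77.7 in neurons, Rpsa at 56.6 and Rps24 at 54.6. In the lists of equal size Rplp0, the scaffold of the ribosomal stalk, stood at percentile 82.4 in proliferating cells and 97.0 in neurons. Its partners Rplp1 and Rplp2 stood at 39.3 and 40.0 in proliferating cells and at 44.8 and 46.4 in neurons.

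**Figure D2:**
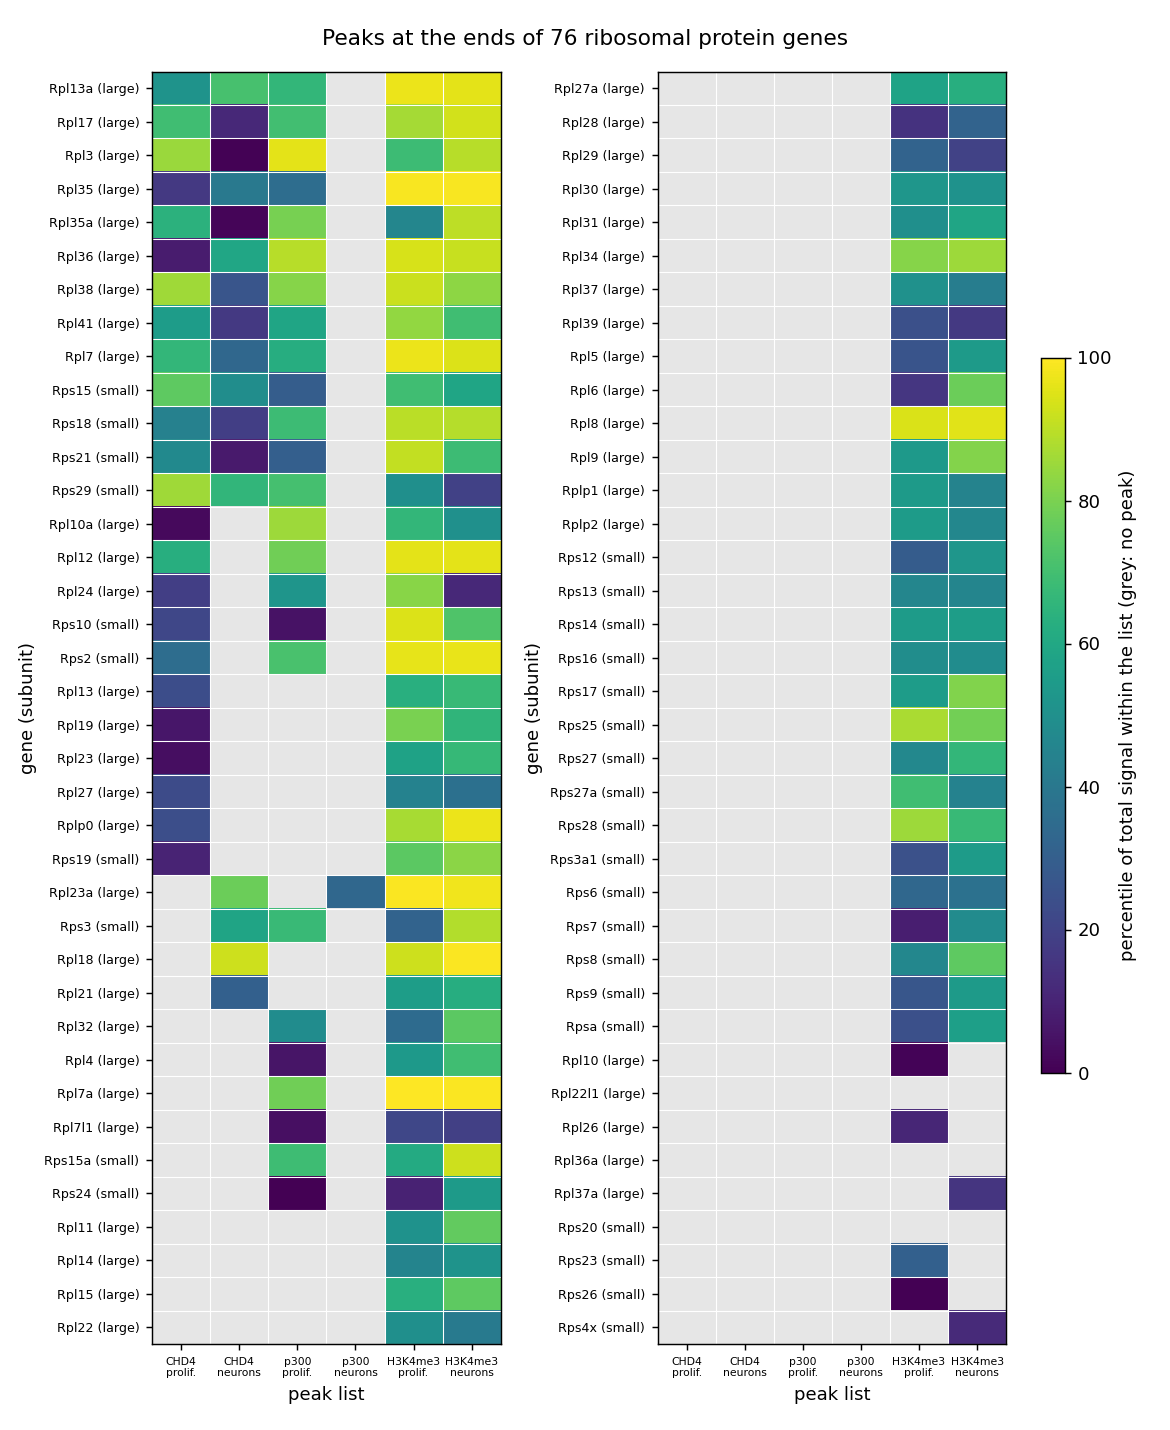
Percentile of total signal, within its own list, of the strongest peak at each of 76 of the 79 ribosomal protein genes (rows) in each of the 6 peak lists (columns); grey cells have no peak within 1 kb of a gene end. H3K4me3 fills nearly all rows, CHD4 28 of the rows shown in either state, and p300 25 rows in proliferating cells and 1, Rpl23a, in neurons.

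CHD4 was listed at a minority of the ribosomal protein genes. It lay at an end of 26 members in proliferating cells (32.9%, 22.8 to 44.4) and 19 in neurons (24.1%, 15.1 to 35.0), against 11.8% and 9.95% of all genes. Among genes with H3K4me3 in the same state the members came nearer to the rest. CHD4 lay at 26 of 74 such members (35.1%) in proliferating cells, against 27.1% of all such genes, and at 19 of 72 (26.4%) in neurons, against 23.6%. In both states the share of all genes lay inside the members' interval (24.4 to 47.1 and 16.7 to 38.1). Other genes in the members' range of length with H3K4me3, a comparison added after the data were seen, had CHD4 at 32.4% and 29.8%, the latter above the members' share. Mitochondrial ribosomal proteins had CHD4 at 6 and 3 of 78 genes, initiation and elongation factors at 9 and 9 of 57, and biogenesis genes at 7 and 6 of 41.

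At 15 members CHD4 was listed in both states (19.0%, against 7.49% of all genes). Among them were Rpl3, Rpl7, Rpl13a, Rpl17, Rpl35, Rpl35a, Rpl36, Rpl38 and Rpl41 of the large subunit and Rps15, Rps18, Rps21 and Rps29 of the small. Rpl13a stood at percentile 51.5 in proliferating cells and 70.7 in neurons. In these lists, and in the H3K4me3 and proliferating p300 lists, 2 members shared a single peak and count as 1 site. Rps15, a protein of the head of the small subunit, had a CHD4 peak of 9450 bp at percentile 75.3 in proliferating cells and of 11750 bp at percentile 49.0 in neurons. Rps29, whose peaks were narrow (1700 and 1850 bp), stood at percentiles 85.7 and 66.0. Rpl38, known for its part in translating Hox mRNAs, stood at 85.7 and 26.4. Rpl7 stood at 66.1 and 33.2, and Rpl36 at 7.61 and 59.2. The peaks of 14 of the 15 overlapped between the states, a count not given for all genes. At Rpl3, a protein close to the peptidyl transferase centre, they did not: the strongest peak was chr15:80071201-80079950 in proliferating cells at percentile 84.8, and chr15:80080051-80084600 in neurons at percentile 0.772.

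CHD4 was listed in proliferating cells only at 11 members (13.9%, against 4.27% of all genes): Rpl10a, Rpl12, Rpl13, Rpl19, Rpl23, Rpl24, Rpl27, Rplp0, Rps2, Rps10 and Rps19. The strongest of these was Rpl12 at percentile 62.5 and the next was Rps2 at 35.9. Rps19 is the gene most often mutated in Diamond-Blackfan anaemia. Weak peaks were frequent: Rpl10a stood at 2.69, Rpl23 at 3.61 and Rpl19 at 6.21. It was listed in neurons only at 4 members (5.06%, against 2.45%). Rpl18 had the highest percentile, 92.5, in a peak of 25000 bp that reached 5 other genes, Rpl23a stood at 77.5, Rps3 at 58.5 and Rpl21 at 30.5. Most members called absent in a state had no CHD4 peak just outside the window. Of the 53 without CHD4 in proliferating cells the nearest lay 2536 bp beyond a gene end, at Rps28. Members listed in neurons only were among the nearer ones: Rpl21 had a proliferating CHD4 peak at 2569 bp, Rpl23a at 3667 bp and Rpl18 at 4167 bp. For Rps3 it lay 95146 bp off. In neurons 1 of 60 had a peak within 2.5 kb, Rpl12, at 1506 bp.

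p300 was listed at 28 members in proliferating cells (35.4%, 25.0 to 47.0), against 8.44% of all genes, and at 1 member in neurons (1.27%), against 1.24%. Among members with H3K4me3 the shares were 28 of 74 (37.8%, 26.8 to 49.9) and 1 of 72 (1.39%), against 19.8% and 2.65% of all such genes and 27.3% and 3.14% of others of like length. The neuron p300 list is also the shorter. With the 965 strongest peaks of each state, p300 lay at 10 members in proliferating cells and 1 in neurons, against 2.73% and 1.24% of all genes. No member had p300 in both states (0.0%, 0.0 to 4.56). Over all genes that share can be no larger than the 1.24% with p300 in neurons, which lies inside this interval. The 1 member in neurons was Rpl23a, whose p300 peak, chr11:78175901-78181450, shared its position of highest signal with the CHD4 peak of that state and also reached Nek8 and Tlcd1. The strongest p300 peaks in proliferating cells were at Rpl3 (percentile 95.7), Rpl36 (89.2), Rpl10a (85.5) and Rpl38 (81.7), and the weakest at Rps24 (0.350), Rpl7l1 (4.01) and Rps10 (4.93). Members with another protein-coding gene end within 1 kb of their own had p300 at 15 of 29 (51.7%, 32.5 to 70.5), and those without at 13 of 50 (26.0%, 14.6 to 40.3). These intervals overlapped. Over all genes the shares were 15.7% and 6.04%.

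CHD4 and p300 met at 20 members in proliferating cells (25.3%, against 7.38% of all genes). At 19 of these their peaks overlapped, a count not given for all genes. All 15 members with CHD4 in both states were among the 20, together with Rpl10a, Rpl12, Rpl24, Rps2 and Rps10. Of the 20, 15 still had CHD4 in neurons (75.0%, 50.9 to 91.3), close to the 78.2% of all genes with both. The other 6 members with CHD4 had no p300 (Rpl13, Rpl19, Rpl23, Rpl27, Rplp0 and Rps19), and 0 of these 6 had CHD4 in neurons, with an upper bound of 45.9%, against 39.2% of all such genes. In the other direction p300 lay without CHD4 in proliferating cells at 8 members, among them Rpl4, Rpl7a, Rpl7l1, Rpl32, Rps15a, Rps24 and Rps3, the last with CHD4 in neurons. CHD4 was thus listed at 71.4% (51.3 to 86.8) of members with p300, against 87.5% of all genes with p300. The largest class had neither: 33 members had H3K4me3 in both states and no CHD4 or p300 peak in any list (41.8%, against 19.0% of all genes), among them Rpl5, Rpl11, Rpl22, Rpl34, Rplp1, Rplp2, Rps25 and Rpsa. Among genes with H3K4me3 in both states the order was the opposite: 33 of 70 members had neither factor (47.1%, 35.1 to 59.5), against 64.8% of all such genes.

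Where in the gene the peaks lay differed between H3K4me3 and the 2 factors. The promoter table gives strand and start for 59 members. In proliferating cells 55 of these had H3K4me3 at an end, and all 55 had a peak within 1 kb of a listed start; in neurons this held for 52 of 53. For p300 in proliferating cells it held for 6 of 19 (31.6%, 12.6 to 56.5), against 80.7% of all genes with p300 and 83.9% of other genes in the members' range of length. For CHD4 it held for 9 of 19 in proliferating cells (47.4%, 24.4 to 71.1), against 82.2% and 81.9%. In neurons it held for 8 of 10 (80.0%, 44.4 to 97.5), against 78.4% and 82.4%. CHD4 peaks were wider there, with a median of 9600 bp at members against 4275 bp in proliferating cells. Over all genes with CHD4 the medians were 5950 and 3500 bp, in the same order. The p300 peaks within reach of a start were at Rpl7a, Rpl10a, Rpl13a, Rpl41, Rps2 and Rps21.

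**Figure D3:**
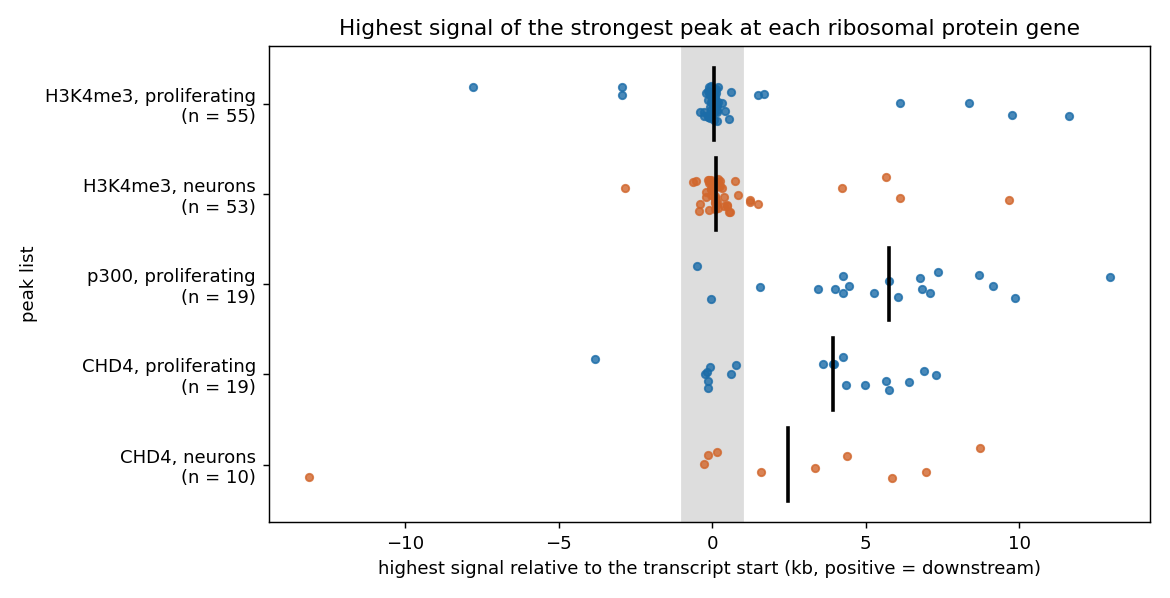
Distance in kb from the most upstream listed transcript start (x axis, positive is downstream) to the position of highest signal of the strongest peak at each ribosomal protein gene (points), by peak list (rows). Black bars are medians and the grey band spans 1 kb on either side of the start; the H3K4me3 medians lie inside the band, and the medians of the other lists lie downstream of it, at 5772 bp for p300 and 3940 bp for CHD4 in proliferating cells.

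The position of highest signal is narrower than a peak's reach and was counted separately. For H3K4me3 it lay within 1 kb of a listed start of the gene itself at 47 of 55 members in proliferating cells and 46 of 53 in neurons. For p300 in proliferating cells it did so at 2 of 19, Rpl7a and Rps21, against 63.9% of all genes with p300 and 61.2% of other genes in the members' range of length. It lay downstream of the start at 17 of 19, at a median of 5772 bp. At 10 of 19 it lay within 1 kb of a listed start of another gene, against 13.2% of all genes with p300 and 15.9% of others of that length: Wdr38 beside Rpl35, Apc2 beside Rps15, Lmln beside Rpl35a, Zbtb11 beside Rpl24, Ndufb10 beside Rps2, B3galt4 beside Rps18, Ttyh2 beside Rpl38, Snapc5 beside Rpl4, Zc3h10 beside Rpl41 and 2310039H08Rik beside Rpl7l1. For CHD4 the position lay at a start of the gene itself at 7 of 19 members in proliferating cells and 3 of 10 in neurons, against 65.1% and 53.0% of all genes. In neurons the share within reach of a start was thus close to that of all genes, while that of the highest signal was below it, over 10 members. It lay at the start of another gene at 8 of 19 and 6 of 10, against 11.3% and 13.2%. Of the 8, 6 had p300 too, and the 2 without it were Rplp0, with its CHD4 signal at Gcn1, and Rpl19, at Cacnb1. Rpl18 in neurons had its highest CHD4 signal upstream, at -13146 bp from its start and at the start of Dbp.

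Counted at transcript starts alone, for the 59 members with a listed start and in a setting added after the data were seen, members no longer stood above other genes with H3K4me3. Of the 55 with H3K4me3 at a start in proliferating cells, 9 had CHD4 there (16.4%, 7.77 to 28.8): Rpl10a, Rpl27, Rpl38, Rpl41, Rplp0, Rps10, Rps15, Rps19 and Rps21. The share was 25.4% of all genes with H3K4me3 at a start and 29.9% (27.9 to 32.1) of other genes in the members' range of length. For p300 it was 6 of 55 (10.9%, 4.11 to 22.2), against 17.8% and 25.2% (23.2 to 27.3). In neurons CHD4 lay at 8 of 52 (15.4%, 6.88 to 28.1), against 21.3% and 26.7%, and p300 at 0 of 52, which allows a share of up to 6.85%, against 2.29% and 2.79%. In these 4 comparisons the members' share was the lower one, while at either gene end it was above that of all genes with H3K4me3 for CHD4 in both states and for p300 in proliferating cells. The members' interval lay below that of other genes of like length for p300 in proliferating cells. For CHD4 the intervals overlapped in both states (24.4 to 29.0 for other genes in neurons). Counted over all 79 members, with the ends that carry H3K4me3 taken for genes without a listed start, CHD4 lay at a start of 16 members in proliferating cells (20.3%, against 10.3% of all genes) and 17 in neurons (21.5%, against 8.10%), and p300 at 15 and 1 (19.0% and 1.27%, against 7.19% and 0.877%). Genes with neither a listed start nor H3K4me3 at an end could not be counted this way, yet stay in these shares. Among genes with a listed start, marked or not, CHD4 lay there at 15.3% of members against 10.6% of all in proliferating cells. In neurons it lay at 13.6% against 8.42%. For p300 the shares were 10.2% against 7.36% and 0.0% against 0.880%.

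**Figure D4:**
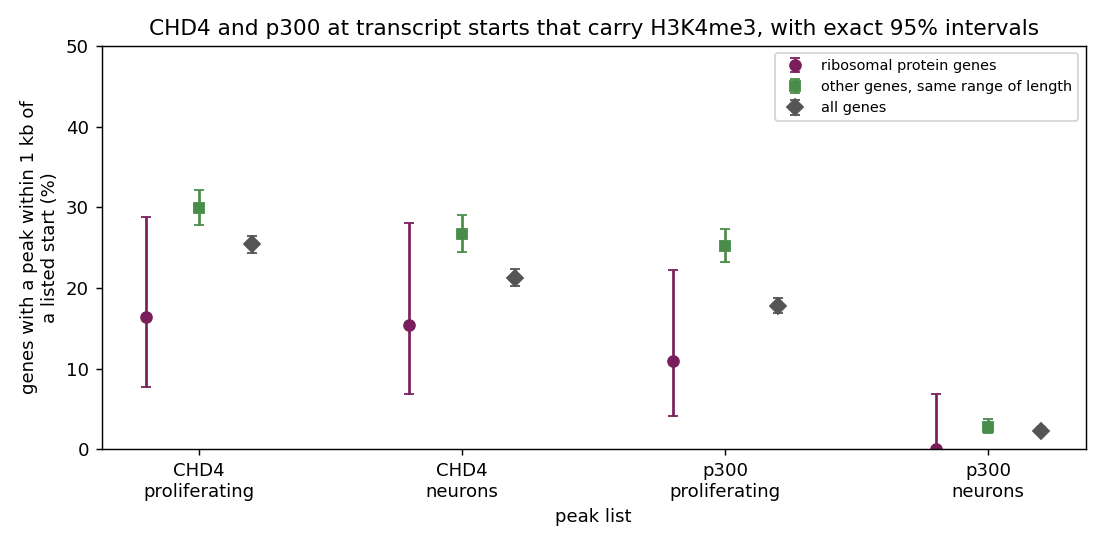
Share of genes with a CHD4 or p300 peak within 1 kb of a listed start (y axis, percent, from 0 to 50), among genes with H3K4me3 at a start in the same state, by peak list (x axis), for ribosomal protein genes, other genes in their range of length and all genes, with exact 95% intervals for counting error. The ribosomal protein genes lie lowest in each list, at 16.4% and 15.4% for CHD4 and 10.9% and 0.0% for p300.

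The H3K4me3 peaks at members with CHD4 were wider. In proliferating cells their median width was 7400 bp (3050 to 17600) at 26 members with CHD4 and 4950 bp (2350 to 21400) at 48 without. In neurons it was 9750 bp (3400 to 21050) at 19 with CHD4 and 5800 bp (3150 to 14000) at 53 without. Over all genes the order was the same, 4800 against 3550 bp and 5600 against 4150 bp. The ranges of members with and without CHD4 overlapped. At 24 of the 26 members in proliferating cells the CHD4 and H3K4me3 peaks overlapped, yet none shared its position of highest signal, and the median distance between these positions was 3600 bp. In neurons the peaks overlapped at 19 of 19, none shared that position, and the median distance was 350 bp. By contrast, CHD4 and p300 in proliferating cells lay a median of 125 bp apart. They shared the position at 6 of 20 members, among them Rpl13a, Rpl17, Rpl35a, Rpl41 and Rps29. How often peaks overlapped or shared a position, and how far apart they lay, is not given for all genes. These values cannot be called particular to the members.

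**Figure D5:**
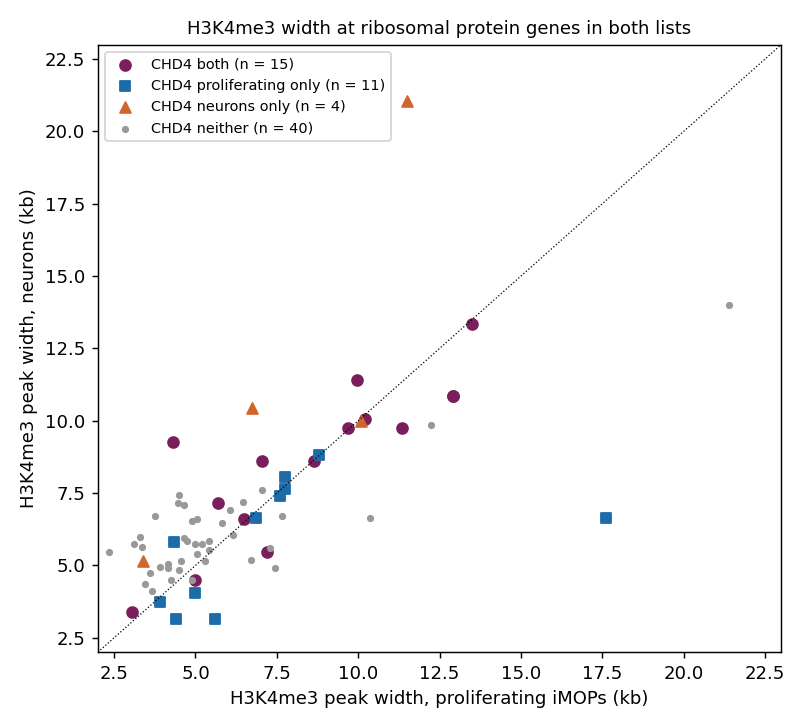
Width in kb of the strongest H3K4me3 peak in proliferating cells (x axis) and in neurons (y axis) for the 70 ribosomal protein genes listed in both states, by CHD4 class (colours and shapes); the dotted line marks equal widths. Points above the line are the 42 members with a wider peak in neurons, and Rpl18, with CHD4 in neurons only, is the topmost at 21050 bp.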

How the data were processed

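The authors deposited 1 peak list for each of CHD4, H3K4me3 and p300 in each state; per the submitters' processing notes the tools were SEACR, Bowtie2 and deepTools and the build mm10, with no versions or roles. The deposited signal values (total and highest signal per peak) are of unknown scaling and were used to order peaks inside 1 list, never between lists. No source used here states how multiply mapping reads were treated. The gene table lists 316 pseudogenes named after 63 of the members, and their part in the calls was not tested.

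Peaks were joined to genes of the RefSeq GRCm38.p6 table where they came within 1 kb of either end; percentiles are of total signal, taken for the strongest peak at a gene. Shares carry Clopper-Pearson 95% intervals, computed with SciPy 1.17.1 under Python 3.11.15, with pandas 2.3.3, numpy 2.4.6 and matplotlib 3.10.9. The overlap code was tested on simulated peaks. Starts and strand came from the RefSeq promoter table (59 members); the other 20 have none.

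The members and lists were chosen with earlier results of these data known. Named, apart from a few that are not reported here, are all members with CHD4 or p300, those lacking H3K4me3 in a state, the 3 extremes of H3K4me3 width and percentile, the l1 forms, Rplp0 to Rplp2 and Rpsa; other names were picked after their values were seen. Promoters shown are the strongest of each class among the 59 members with a promoter sequence, without chromosome 18.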

Additional observations from a re-analysis of the deposited data

How the results depend on the processing

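Of 63 values (9 counts under 7 alternatives), 48 stayed within 1.5 times the reported count, and the members' share stayed above that of all genes in 60. For p300 in neurons that share rests on 1 gene, Rpl23a, at 1.27% against 1.24% in the main count. The tally sets members against all genes. Among genes with H3K4me3 at a listed start, members had the lower share for both factors in both states. With the stronger 50% of each list, CHD4 fell to 11 members in proliferating cells (13.9%, against 5.23% of all genes) and 7 in neurons (8.86%, against 4.92%). It fell to 3 in both (3.80%, against 3.20%). H3K4me3 in proliferating cells fell to 45 (57.0%, against 21.1%) and p300 in neurons to 0 (0.0%, against 0.484%). Lists of equal size gave p300 at 10 members in proliferating cells (12.7%, against 2.73% of all genes). Counting transcript starts only (for the 20 members without a listed start, the ends with H3K4me3) gave 16 for CHD4 in proliferating cells and 15 for p300 in that state. It gave 5 for CHD4 in proliferating cells only (6.33%, against 3.79% of all genes). Requiring the position of highest signal inside the window gave CHD4 14 in proliferating cells (17.7%, against 8.42% of all genes) and 10 in neurons (12.7%, against 5.74%). It gave 7 for CHD4 in both states (8.86%, against 4.59%) and 7 in proliferating cells only (8.86%, against 3.82%). For p300 it gave 12 and 0 (15.2% and 0.0%, against 5.86% and 0.594%). A setting added after the data were seen took only the 59 members with a listed start and peaks at that start. It gave CHD4 9 and 8, and p300 6 and 0. CHD4 lay in both states at 4 (6.78%, against 6.72% of genes with a listed start). In proliferating cells only it lay at 5 (8.475%, against 3.89%). Windows of 500 bp and 2.5 kb and leaving out Rpl7l1 and Rpl22l1 moved no count by more than 1.5 times. The numbers of CHD4 and p300 members thus depend on where at the gene a peak must lie and on which peaks of a list are kept. Those of H3K4me3 stayed within 1.5 times, except with the stronger 50% in proliferating cells. No paired analysis was possible because each antibody has 1 library per state.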

Other observations

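Genes of the cytosolic ribosome whose symbols fall outside the Rpl and Rps names differed among themselves. Rack1, a small-subunit protein of signalling scaffolds, had H3K4me3 in both states and p300 in proliferating cells only. Fau, which encodes a ubiquitin-like protein fused to a small-subunit protein, had H3K4me3 in both states and neither factor. Of 6 paralogs left out by the rule, Rps27l and Rpl36al had H3K4me3 in both states, and Rps27rt, Rpl10l, Rpl39l and Rpl3l had no peak in any list.

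Members that host snoRNAs had CHD4 at 9 and 8 of 30 genes in proliferating cells and neurons, and those without at 17 and 11 of 49. For p300 in proliferating cells the counts were 11 of 30 and 17 of 49. The exact intervals of the 2 groups overlapped in each of these comparisons.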
